A study of Danio rerio with 12 samples.

Results

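Migratory trunk neural crest of the zebrafish embryo at 24 hours after fertilisation was described from the 8 migratory libraries of a series of 12, without a comparison with the 4 premigratory libraries, which were not analysed here. All 8 carry the genotype sox10:H2B-Dendra2 (Tg), in which sox10 drives a histone joined to a photoconvertible protein, and all carry the treatment label control. Each library was made from 20 cells, converted by light beside somites 10 to 15 and then sorted, with 8 embryos converted per population. The protocol names Leader and Follower cells, but no label says which library holds which, so the 8 were kept as 1 group of replicates labelled as biological. Each library also has its own batch number, 1 to 8, so batch and library cannot be told apart. Because sox10 drives the reporter by which cells were chosen, the presence of its transcript is not independent of the choice of cells.

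Neural crest cells leave the dorsal neural tube, lose much of their adhesion to neighbours and move along defined paths through the trunk. In fish trunk they give rise to sensory and sympathetic neurons, to glia and to 3 kinds of pigment cell: black melanophores, reflective iridophores and yellow xanthophores. Transcription factors such as Sox10, Foxd3 and Tfap2a set up this state, and receptors for endothelins, neuregulins and chemokines are known to act on crest cells as they move or choose a fate.

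The deposited values are normalised counts per gene, and they summed to 17765775 to 24227327 per library. Between 5274 genes (library 4) and 9764 genes (library 6) reached a value of 100. Libraries 4 and 5 stood apart from the others in how their sums were divided among genes. Library 4 had the fewest genes at 100 or more but the most above 0, 22180, and ribosomal protein genes held 13.7% of its sum against 2.57% to 6.03% elsewhere. In library 5 the 10 genes with the highest values held 32.1% of the sum, against 6.1% to 15.1% in the other 7, and genes of the blood list held 19.3%. The same library was lowest for all 4 crest markers (below), so these values go against its label in part, and whether the library labelled migratory 5 holds mainly crest cells was not tested. Rank correlations between libraries over the 11383 genes with a mean of 100 or more ran from 0.267 (libraries 1 and 4) to 0.749 (libraries 3 and 7). By this measure library 1 also stood apart, at 0.267 to 0.467 with the others, against 0.267 to 0.484 for library 4 and 0.315 to 0.524 for library 5. Library 1 also had the most genes that reached 100 in no other library, 750. No sequence or transcript length table was used, so values of different genes are not corrected for length and their order says nothing exact about transcript number.

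The 4 crest markers were present in all 8 libraries and lowest in library 5. SOX10, which specifies pigment and glial fates, had normalised counts of 2474, 9081, 13814, 13508, 1225, 22646, 11034 and 10594 in libraries 1 to 8, a mean of 10547 ± 6764 (SD, n = 8). For crestin, a transcript that marks fish crest cells, the values were 1406, 7547, 13451, 16239, 135, 9971, 7029 and 8293 (mean 8009 ± 5452). FOXD3, a regulator of early crest, had 3219, 7805, 8317, 9969, 978, 10734, 5397 and 7652 (mean 6759 ± 3343). TFAP2A, needed for crest induction and pigment cells, had 2130.5, 2226, 13730.3, 6832, 1041, 12694, 9495 and 9153 (mean 7163 ± 4934). Library 1 was the second lowest for all 4 markers, and the remaining 6 libraries lay at 2226 or above for each of them. Without library 5 the means were 11879 for SOX10, 9134 for crestin, 7585 for FOXD3 and 8037 for TFAP2A.

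**Figure D1:**
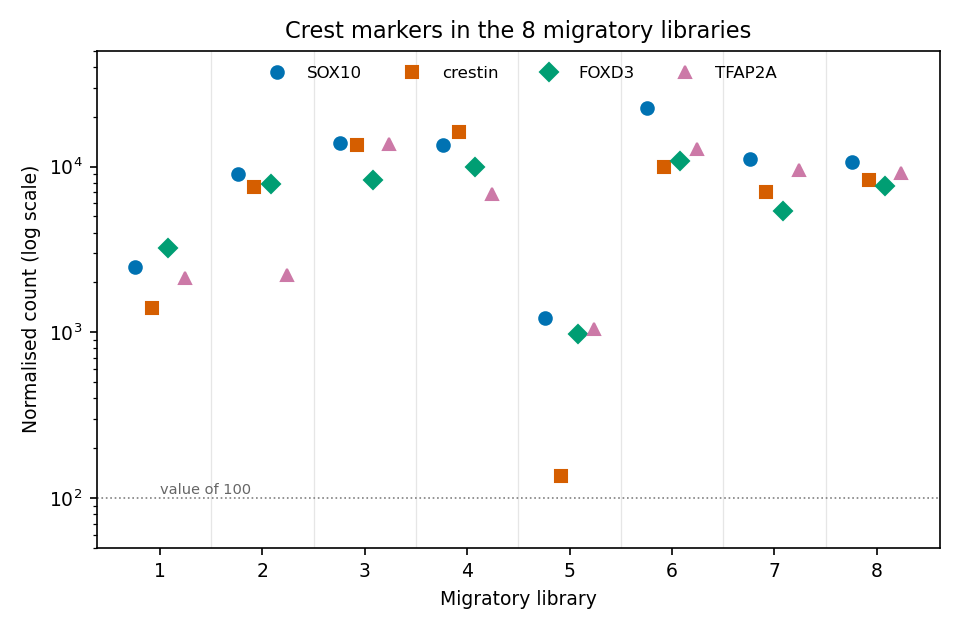
Normalised counts of SOX10, crestin, FOXD3 and TFAP2A (vertical log axis) in each of the 8 migratory libraries (horizontal axis), 1 point per gene and library, with a dotted line at 100. All points lie above the line, and library 5 is lowest for each marker, with crestin at 135.

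Defining markers of neighbouring tissues were near 0 in some cases and high in single libraries in others. The endothelial genes kdrl and cdh5 did not pass 11.9 and 5.8, but FLI1, also listed as endothelial, was at 2263 in library 5, 495 in library 6 and at most 12.6 elsewhere. Of the notochord markers, tbxta was at 1157 in library 5 and at most 2.93 elsewhere. COL2A1 (ENSDARG00000069093) was at 7139 in library 6 and 2346 in library 5. The other COL2A1 identifier (ENSDARG00000011407) was at 892 in library 8, 200 in library 6 and 0 in library 5. The notochord markers SHH (ENSDARG00000068567) and SHH (ENSDARG00000038867) did not pass 7.82 and 0.996, and both were at 0 in library 5. The neural tube gene SOX3 reached 4427 in library 4 and passed 700 in libraries 1, 5, 6 and 7. SPI1 and LCP1, which mark macrophages, did not pass 1.3 and 1.99. Of the macrophage list 18 of 26 identifiers reached 100 in no library, against 10574 of all 25878 genes. Other members of that list did reach it: CORO1A was at 1908 in library 6, and cybb at 508 and csf1ra, also on the pigment list, at 1180 in library 7. LGMN was at 2892 or more in all 8 libraries. The gene apoeb, also on the lipid list, reached 100 in 6 libraries and was highest in library 6 (6194). Markers of muscle, epidermis and blood were not near 0: actc1b reached 534386 in library 1, krt4 328979 in library 1 and 328519 in library 8, and hbbe3 535832 in library 5. The part of such transcripts in the results below was not tested.

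A value of 100 or more in all 8 libraries was reached by 2533 of 25878 genes (9.79%), called the shared set below, of which 2506 have a symbol. It held 41.4% (library 5) to 82.0% (library 4) of the sum of values. At the other end, 10574 genes reached 100 in no library, 3092 in exactly 1 and 1711 in exactly 7. Library 4 alone kept 907 genes out of the set, library 1 kept out 273 and library 5 kept out 252, against 27 to 112 for each of the others. Without library 4 the set had 3440 genes, without library 5 it had 2785, and without both it had 3950. Just inside the threshold were BPTF (lowest value 100.1, library 4), si:ch211-85n16.3 (100.2, library 1) and MYOG (100.2, library 7). Just outside were AP3D1 (99.7, library 4), si:dkey-16m19.6 (99.5, library 6) and mus81 (99.4, library 1).

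Within the set the typical gene was far from constant. The ratio of the highest to the lowest library had a median of 6.57, and the SD of log2(value + 1) over the 8 libraries had a median of 0.91. Library 1 held the lowest value of 29.3% of shared genes and library 5 that of 22.1%, while library 4 held the highest value of 26.8%, library 6 that of 20.3%, library 8 that of 14.8% and library 1 that of 7.78%. The 5 most even genes with a symbol were MRPL13, a mitochondrial ribosomal protein (SD 0.19 on the log2 scale), WDR83OS (0.23), CWC15, a splicing factor (0.24), HNRNPD, an RNA-binding protein (0.25), and ATP5F1C, a subunit of ATP synthase (0.26). MRPL13 ran from 2106 in library 5 to 3026 in library 8 (median 2564).

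The most uneven shared genes include those of a receptor, a metalloproteinase and a membrane protein. Endothelin receptor gene ednrab had 289.7, 23674, 9796, 28371, 389, 51219.9, 1148 and 22929 in libraries 1 to 8, an SD of 3.00 on the log2 scale. The metalloproteinase gene mmp17b had 448, 20166, 31239, 22099.8, 903, 54555, 1135 and 41924 (SD 2.83), and pmp22a, a myelin-related membrane protein, had 918, 27412, 32452, 86182, 1282, 61226, 1715 and 48109 (SD 2.75). For all 3 genes libraries 1, 5 and 7 were the lowest, and each of the other 5 libraries was at least 8.53 times the highest of these 3. Next came MYOG, a muscle regulator (SD 2.57), with 18355 in library 5 against 100.2 to 3819 elsewhere, and marcksl1b, a regulator of actin at the membrane (SD 2.46), with 624.8 in library 5 and 5699.7 in library 1 against 39002 to 74249 elsewhere.

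Ordered by mean normalised count, the shared set opened with the mitochondrial cytochrome oxidase genes MT-CO2, MT-CO1 and MT-CO3, at 138585 ± 36437, 125528 ± 24138 and 117826 ± 37071 (SD, n = 8 each). Next were actb2, the cytoplasmic actin of motile cells (98447 ± 43199), HMGB2, a chromatin protein of dividing cells (89207 ± 52729), and a tubulin gene, tubb2b (73894 ± 34703). The seventh place was taken by AKR1B1 (ENSDARG00000006215), an aldose reductase, which ran from 3508 in library 1 to 247408 in library 7 (median 55618). SLC25A5, the mitochondrial ADP/ATP carrier, had 69355 ± 21863, and the chromatin proteins hmga1a and HMGN2 had 65183 ± 38047 and 63122 ± 44012. The other places to 20 went to si:dkey-151g10.6, prothymosin gene ptmab, fatty acid binding protein FABP3, glutamine synthetase GLUL (ENSDARG00000100003), elongation factor eef1a1l1, ferritin gene fthl27, calmodulin gene calm3b and marcksl1b, with MT-CYB and RPS2 among them. In the first 20 the ratio of highest to lowest library was 1.89 for MT-CYB and 2.03 for MT-CO1, against 70.5 for AKR1B1 and 119 for marcksl1b. A mean of 10000 or more was reached by 252 shared genes.

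Against the 9.79% of all genes, the share of each gene list that lay in the shared set differed widely, from 12 of 13 for the mitochondrial genome to 0 of 26 for endothelial genes. Lists of respiration, translation, proliferation and cytoskeleton had 48.9% to 92.3% of their identifiers in the set. Crest regulators had 12 of 51 (23.5%), and lists of receptors for guidance, growth factors and Wnt, BMP or Hedgehog ligands had 1.39% to 2.44%. These shares were not tested against each other.

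**Figure D2:**
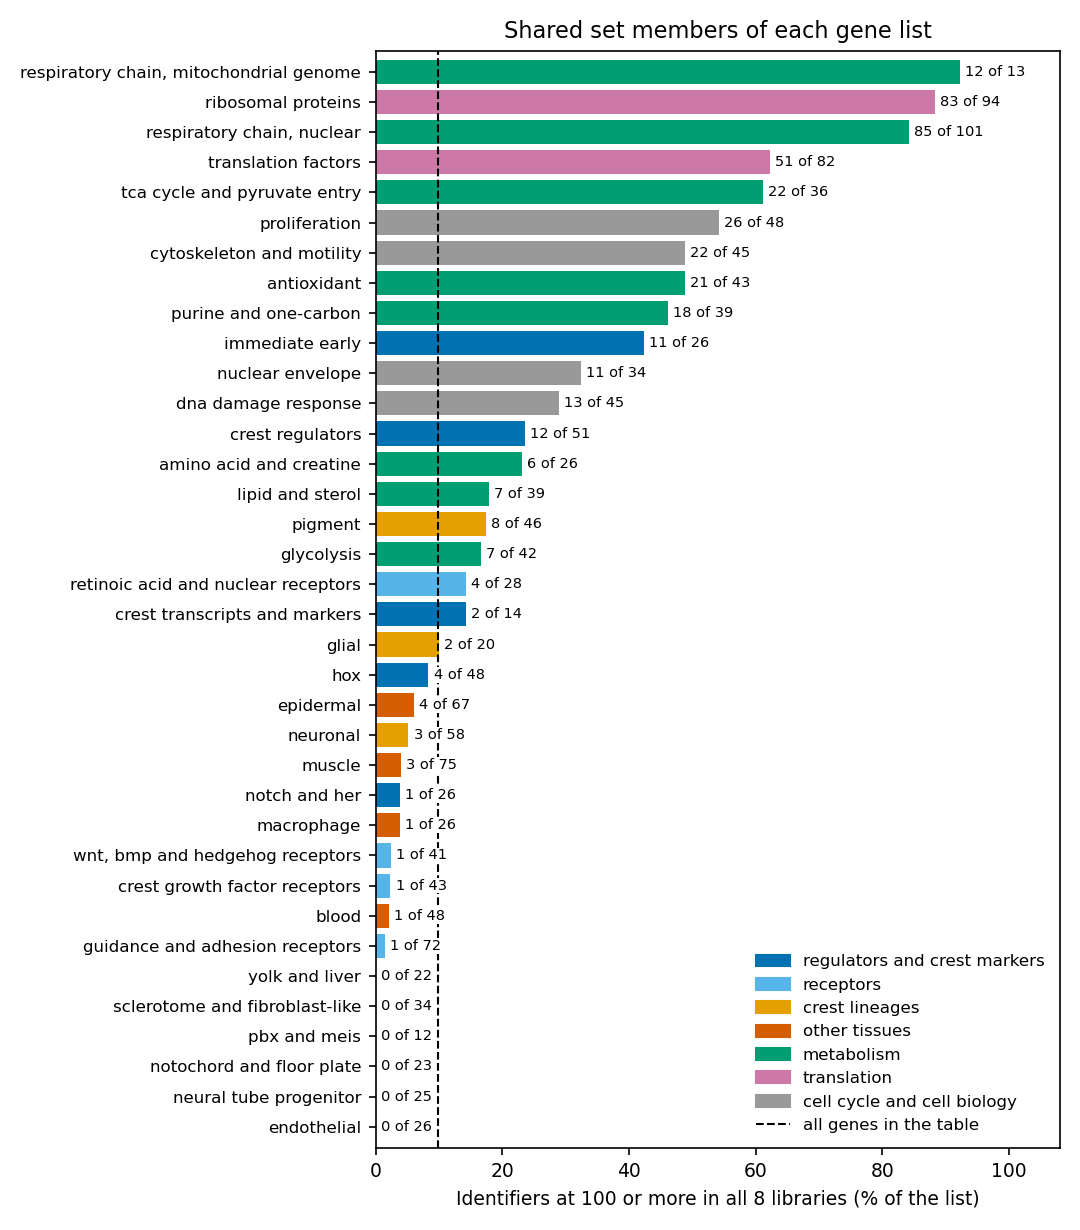
Share of each of 36 gene lists (vertical axis) that had a normalised count of 100 or more in all 8 migratory libraries (horizontal axis, percent of identifiers), coloured by kind of list and labelled with the counts, with a dashed line at the 9.79% of all genes in the table. Respiratory, ribosomal and translation lists lie far right of the line, and the lists of growth factor, guidance and Wnt, BMP or Hedgehog receptors and of other tissues lie left of it.

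Among regulators, 12 of 51 crest identifiers were shared: SOX10, ID1, TFAP2A, FOXD3, MYCN, snai2, ALX4 (ENSDARG00000088332), zeb2a, MYC (ENSDARG00000007241), ID3, ETS1 and SOX6. ID1, an inhibitor of helix-loop-helix factors downstream of BMP signals, ran from 851 in library 5 to 18143 in library 8 (median 10838). MYCN, a growth regulator of crest progenitors, ran from 458 in library 5 to 20972 in library 6 (median 4202), so library 6 stood well above the rest. The repressor gene snai2, a regulator of the loss of epithelial adhesion, had 2104, 1987, 12557, 1682, 3045, 8629, 9403 and 4629 in libraries 1 to 8, with its highest values in libraries 3, 6 and 7. Library 5 held the lowest value of 7 of the 12, and library 6 the highest of 4, against 22.1% and 20.3% of all shared genes. Some crest regulators missed the set through 1 library, among them ID2, at 6.14 in library 5 against 5207 to 38750.1 in the others, and msx1b, at 0.979 in library 4 against 356 to 15376. These 2 were picked after their values were seen.

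Hox genes record the position of a cell along the body axis, and paralog groups 7 to 11 act in the trunk and tail. Of 48 identifiers, 4 were shared: HOXB9, HOXD9, HOXB7 and HOXA11 (ENSDARG00000007009), so 8.33% against 9.79% of all genes. HOXB9 had 1794, 10939, 9236, 11418, 1051, 26861, 1496 and 13291 in libraries 1 to 8, and HOXD9 had 879, 7119.7, 13995, 8093, 954, 5999, 3684 and 14377. HOXB7 ran from 371 in library 5 to 8374 in library 2 (median 2995), and HOXA11 from 314 in library 5 to 5297 in library 4 (median 3859). Libraries 1, 5 and 7 were the 3 lowest for each of these 4 genes, against 7.78% of all shared genes. A single library set this count: without library 5 there were 13 shared Hox identifiers of 48, against 2785 of all 25878 genes. Genes such as hoxc3a, hoxa9b and HOXB8 were at 0 to 6.96 in library 5. Over the 38 Hox identifiers with a mean of 100 or more, the mean of log2(value + 1) was 2.53 in library 5 and 6.48 to 9.46 in the other 7. None of 12 Pbx and Meis identifiers, partners of Hox proteins on DNA, was shared. Of these, pbx2 ran from 8.2 in library 4 to 2889.8 in library 1 (median 2034), pbx4 from 65.4 in library 4 to 3755 in library 6 (median 1638) and MEIS1 from 3.76 in library 5 to 5019 in library 6 (median 1213), so each failed in 1 library.

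Immediate early genes, which are induced within minutes by growth factors and also by the handling of tissue, had 11 of 26 identifiers in the set. FOS had 40302, 28203, 32737, 28186, 5555, 37616, 21981 and 31206 in libraries 1 to 8, a mean of 28223 ± 10798. The others with the highest means were ier2a (18599 ± 8609.7), JUNB (ENSDARG00000104773, 15684 ± 9475), JUN (12872 ± 7606) and JUNB (ENSDARG00000074378, 8042 ± 2930.3). Library 1 held the highest value of 6 of the 11, against 7.78% of all shared genes. Of 22 members with a mean of 100 or more 13 were highest there, against 16.2% of the 11383 genes with such a mean. In that library egr1 was at 18491, against 527 to 5580.4 elsewhere.

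Of 26 Notch pathway identifiers, only DLD, a Delta ligand expressed in neural and crest tissue, was shared, with 5690.3, 6306, 2579, 8217, 2173, 4527, 5345 and 4109 in libraries 1 to 8. LFNG, an enzyme that modifies Notch receptors, was at 2.15 in library 5 and at 744 to 22809 in the other 7. Several pathway members were high in library 4, a selection made after seeing values: NOTCH1 (ENSDARG00000103554) was at 5249 there and at most 435 elsewhere, the Delta gene dlb at 3029 and under 1 elsewhere, and the target gene her4.2 at 4827 and at most 307 elsewhere.

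Of the 4 receptor lists, 3 had 1 shared member each, and nuclear receptors had 4 of 28 (14.3%), against 9.79% of all genes. In the list of 43 growth factor and endothelin receptors the single shared member was ednrab, described above. Its relative EDNRB (ENSDARG00000089334), the endothelin receptor of pigment cells, had 0, 155, 4386, 513, 0, 721, 1636 and 511, with its highest values in libraries 3 and 7. MC1R, the melanocortin receptor of pigment cells, was at 3237 and 3379 in the same libraries and at most 560.3 in the others. The neuregulin receptor erbb3b, needed for crest migration and glia, had 567, 469, 119, 298, 0, 1181, 2.16 and 462, and it fell short in libraries 5 and 7. RET, the GDNF receptor, reached 1209.6 in library 1 and at most 366 elsewhere.

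Guidance and adhesion receptors had 1 shared member of 72, ITGB1 (ENSDARG00000104484), the beta subunit common to many integrins, which ran from 147 in library 4 to 3567 in library 6 (median 934). Its partners varied more: ITGA5, the fibronectin receptor subunit, had 4.63 in library 5 and 7448 in library 6, and ITGA4 had 1.86, 1.87, 617, 3.81, 3554, 3852, 2053 and 973. CDH2, the N-cadherin of neural tissue, ran from 6.62 in library 7 to 2755 in library 6 (median 677), and cdh6, a cadherin of crest cells, from 0 in library 1 to 4297 in library 6 (median 739). CXCR4 (ENSDARG00000041959), a chemokine receptor, was at 6339 in library 2 and at most 731 elsewhere. All of these but ITGB1 were picked after their values were seen.

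Of the Wnt, BMP and Hedgehog receptors, 1 of 41 was shared, the BMP type 1 receptor acvr1l, with 976, 918, 1284, 2260.4, 840.0, 2149, 266 and 1503. Among the 4 shared nuclear receptors, the COUP family gene nr2f5 ran from 1191 in library 5 to 31361 in library 6 (median 7728), and the 2 NR2F6 identifiers had means of 1862 ± 1344 (ENSDARG00000003165) and 1631 ± 1315 (ENSDARG00000003607). NR1D2, a repressor of the circadian clock, had 602 ± 572.

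Genes of the crest's descendants were read against the 9.79% of all genes in the set. Pigment genes had 8 of 46 members in it (17.4%), neuronal genes 3 of 58 (5.17%) and glial genes 2 of 20 (10.0%). The members with the highest means were tspan36, a tetraspanin of pigment cells, from 1669.9 in library 1 to 57776 in library 3 (median 10282), the purine synthesis genes GMPS and PAICS, ATP6V0C (ENSDARG00000057853), a proton pump subunit, and GPR143, a receptor of melanosomes, from 303 in library 1 to 22136 in library 3 (median 5422). The other 3 were trpm1b, RAB32 (ENSDARG00000029036), which sorts melanosome cargo, and ALX4. Their median ratio of highest to lowest library was 50.5, against 6.57 over the whole set. The 3 neuronal members were all cytoskeletal: tubb2b, STMN1 (ENSDARG00000004169, 20499 ± 14831) and tuba1c (1232 ± 1183). The 2 glial members were SLC1A3 (ENSDARG00000104431), a glutamate transporter, from 515 in library 5 to 19447 in library 4 (median 10444), and FOXD3, which is also a crest regulator. Muscle had 3 of 75 (ALDOA, ENSDARG00000011665, MYOG and PKM, ENSDARG00000099730), epidermis 4 of 67 (pfn1, krt18a.1, JUP, ENSDARG00000070787, and krt8), blood 1 of 48 (UROD) and macrophages 1 of 26 (LGMN, a lysosomal protease).

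Most listed genes of oxidative metabolism lay in the shared set. Of 13 protein genes of the mitochondrial genome 12 were shared, and MT-ND3 missed through library 5 (74.3). Of 101 nuclear genes for the respiratory chain and ATP synthase, assembly factors included, 85 were shared (84.2%), with a median ratio of highest to lowest library of 3.77. ATP5F1B and ATP5F1C, subunits of ATP synthase, had 30384 ± 6988 and 24356 ± 4346, and atp5mc3b, ATP5PO and COX7C followed with means of 21702, 21501 and 21389. Library 5 held the lowest value of 55 of the 85 and library 4 the highest of 45, against 22.1% and 26.8% of all shared genes. The list for the tricarboxylic acid cycle and pyruvate entry, which also holds cytosolic enzymes, had 22 of 36. It was led by the cytosolic MDH1 (8215 ± 5590.4), followed by MDH2 (7607 ± 5556), PDHB (7298 ± 3812), SUCLG1 (7079 ± 2894) and pdha1a (6700.3 ± 3808). For 17 of these 22 the highest value was in library 1, against 7.78% of all shared genes.

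Of 42 glycolytic identifiers 7 were shared. LDHB, a lactate dehydrogenase, ran from 3216 in library 5 to 23749 in library 7 (median 14319), and GAPDHS from 405 in library 5 to 18199 in library 7 (median 10223). The other shared members were ALDOA (ENSDARG00000011665), 2 TPI1 identifiers, HK1 and PKM. GAPDH had 47371, 24123, 2009.8, 1949.9, 4142, 14715, 29.1 and 29197 in libraries 1 to 8, the same libraries being high as for muscle actin (below), and the glucose transporter gene SLC2A1 (ENSDARG00000001437) was at 50428 in library 1, 3142 in library 2 and under 100 in the other 6. Both were picked after their values were seen.

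Purine and one-carbon genes had 18 of 39 in the set. Purines are substrates for xanthophore pteridines and iridophore guanine as well as for DNA. GMPS, which makes GMP, had 1790.2, 3929.7, 18478, 648, 8002, 32065, 24697 and 1742 in libraries 1 to 8, PAICS had 696, 2601, 15767, 1659.6, 4721, 17718, 27051 and 6461, and PPAT, the first enzyme of purine synthesis, had 399, 853, 4619, 264, 5917, 15335, 15207 and 5383. PPAT was picked after its values were seen. Libraries 6 and 7 were high for all 3 and library 4 was low, as was library 1, while library 8 was low for GMPS. The ribonucleotide reductase genes RRM2 (ENSDARG00000020711) and RRM2 (ENSDARG00000078069) followed another order, with their highest values in library 2 (32197) and library 5 (24261). PSAT1, a serine synthesis enzyme, ran from 423 in library 1 to 18624 in library 3 (median 4168).

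Amino acid and creatine genes had 6 of 26. Without library 4 they had 14, against 3440 of all 25878 genes. GLUL (ENSDARG00000100003) had 21539.9, 28172, 51027, 19458, 27153, 97763, 122373 and 56757, so libraries 6 and 7 were the highest, as for GMPS and PAICS. CKB (ENSDARG00000043257), a creatine kinase, ran from 677 in library 5 to 26320.2 in library 7 (median 5530.4), ODC1, which starts polyamine synthesis, from 1195 in library 4 to 29717 in library 5 (median 3788), and got2b from 1074 in library 5 to 11896 in library 7 (median 5857). Lipid and sterol genes had 7 of 39: FABP3 (53897 ± 28309), HADHB (4575 ± 2042), FDPS (3100.2 ± 1546), ECHS1 (3075 ± 1697), ACADVL (2823 ± 2151), ACADM and ACSL4. Antioxidant genes had 21 of 43, with thioredoxin TXN (40320.5 ± 23421), peroxiredoxins PRDX1 (ENSDARG00000025350, 18110.3 ± 12995) and prdx1 (ENSDARG00000058734), ferritin fth1a (17612 ± 21802), GPX4 (11900.1 ± 3709) and GLRX5 (8082 ± 5660.2) leading. PRDX1 (ENSDARG00000025350), fth1a and GLRX5 were each highest in library 5, at 44069, 70239 and 21419, where hemoglobin genes were also highest, and the part of blood transcripts in these values was not tested. Peroxiredoxin prdx1 (ENSDARG00000058734) was highest in library 7, at 26311.

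Ribosomal protein genes had 83 of 94 identifiers in the set. Of these 83, 82 were highest in library 4, against 26.8% of all shared genes. RPS2 and RPL3 had 117436 and 89809.5 there, against 21236 to 48309 and 24219 to 42113 in the other 7. RPLP1, RPL19 and RPL36 had means of 37991, 36366 and 29275. The median rank correlation between pairs of members over the 8 libraries was 0.810, against 0.0476 between all genes with a mean of 100 or more. Translation factors had 51 of 82, with eef1a1l1 (50698 ± 26400.2), EIF5A2 (27425 ± 16248), eif5a (22309 ± 6074), EIF2S2 (17628 ± 6153) and eif4ebp1 (16499.9 ± 6960.2) first.

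Proliferation genes had 26 of 48. PCNA, the sliding clamp of DNA replication, had 3408, 27672, 15430.3, 13515, 26899, 22231, 13056 and 21139 in libraries 1 to 8. The mitotic genes CDK1 (8719 ± 7733), UBE2C (7423 ± 9351) and plk1 (7370.1 ± 7561) were in the set too, and cdkn1ca, an inhibitor of cyclin-dependent kinases, ran from 707 in library 5 to 17595 in library 8 (median 9057). Library 1 held the lowest value of 16 of the 26, against 29.3% of all shared genes. The list's mean of log2(value + 1) was 7.61 there against 9.68 to 11.7 elsewhere. The cytoskeleton list had 22 of 45: after actb2 and marcksl1b came tmsb4x, which binds actin monomers (39420.4 ± 27490.4), myl12.1, a myosin light chain (38202 ± 17995), and tubb4b (27245 ± 9914). For tmsb4x the lowest values were 4449.7 in library 5 and 5779 in library 1, against 30415 to 81201 in the others. The GTPases rac1a, CDC42, rhoac, rhoaa and rhoab, switches of protrusion and contraction, were all in the set, and rac1a ran from 2212 in library 5 to 23261 in library 6 (median 9871).

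The study's title concerns protection from DNA damage during migration through confined tissue, and genes of the nuclear envelope and of the DNA damage response were partly in the set. Of 34 envelope identifiers 11 were in the set: BANF1, which binds DNA at the envelope (13505 ± 5553), the membrane repair genes chmp4bb (8716 ± 3516), CHMP2A (6889 ± 3002), CHMP2B (ENSDARG00000002190, 3765 ± 2295) and VPS4B (3676 ± 2529), the lamins LMNB2 and LMNB1, tmpoa, tmpob, NUP107 and chmp4ba. LMNB1 ran from 661 in library 1 to 6388 in library 6 (median 3274), and LMNB2 from 699 in library 1 to 8549 in library 6 (median 2657). The DNA damage list had 13 of 45. CCNG1, a target of p53, had 12638, 14016, 15191, 4247, 33707, 20529, 11792 and 26651, with library 4 the lowest. The single-strand binding subunits RPA1, RPA2 and RPA3 had 6958 ± 7312, 6875 ± 4943 and 3326 ± 2399, and GADD45B (ENSDARG00000013576) ran from 413 in library 5 to 15463 in library 3 (median 5012).

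How far the genes of a cell class varied together was measured list by list. For each list the members with a mean of 100 or more were taken, a filter that 1 library can pass alone, and each member was compared with the mean of log2(value + 1) of the other members by Spearman's rank correlation over the 8 libraries. Pairs of all such genes had a median rho of 0.0476. Over pairs of members of the same list the medians were 0.539 for pigment, 0.467 for muscle, 0.419 for epidermis, 0.381 for both neurons and blood and 0.117 for glia. These values describe the libraries and carry no test, because the lists were chosen with results of these data known. In material from 20 cells, more cells of a class and more RNA per cell cannot be told apart.

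**Figure D3:**
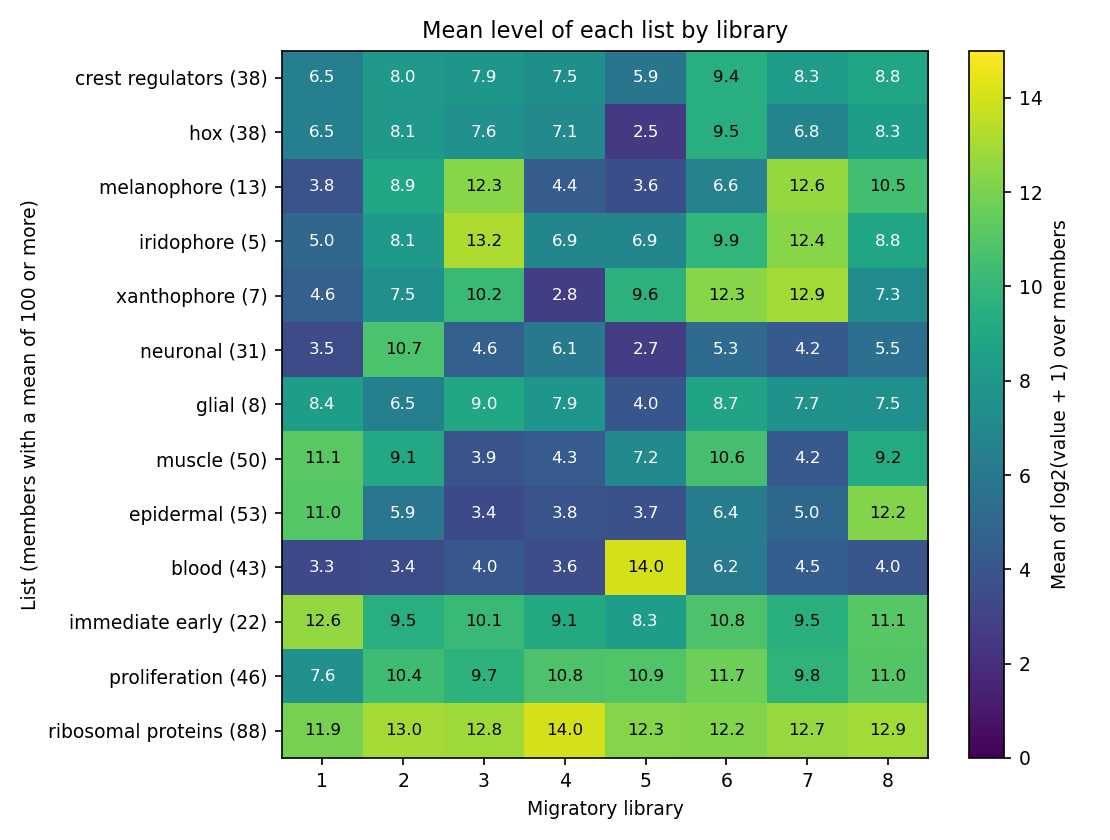
Mean of log2(value + 1) over the members of each list with a mean of 100 or more (rows, number of members in brackets) in each migratory library (columns), with the value printed in each cell and the colour scale at the right. Melanophore and iridophore genes are highest in libraries 3 and 7, xanthophore genes in libraries 6 and 7, neuronal genes in library 2, muscle genes in library 1, epidermal genes in libraries 1 and 8, and blood genes in library 5.

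Pigment genes were highest in library 7 and then library 3. Of 40 members 19 had a rho of 0.7 or more with the rest of the list, against 6.42% of the 11343 other genes. The list's genes took 11.1% of the sum in library 7, 4.81% in library 6 and 3.38% in library 3, against 0.0916% to 1.14% in the other 5. In libraries 6 and 7 most of that was 1 gene, gch2, a GTP cyclohydrolase that starts pteridine synthesis in xanthophores. It had 3085, 89027, 145520.4, 18.5, 144510.3, 963899, 1416635 and 150317 in libraries 1 to 8. Only library 4 was below 100 for it.

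The 3 pigment classes were divided by textbook genes after the values were seen. Library 7 was first or second in the mean of each class and library 3 among the first 3, while library 6 was high for xanthophore genes (mean of log2(value + 1) 12.3) and lower for melanophore genes (6.64). The mean of melanophore genes was highest in libraries 3 and 7 and lower in libraries 2 and 8. DCT, which acts in melanin synthesis, had 17.3, 1965, 45759.6, 5.3, 4.48, 2.2, 75726 and 10079.5, and TYRP1 (ENSDARG00000056151), another melanin enzyme, had 382, 2345, 91917, 4, 11.6, 0.975, 138470.1 and 1869. The melanosome gene pmela had 15, 3209.9, 53053, 12.3, 11.5, 10615, 98402 and 11470.4, and TFAP2E had 2.1, 2799.6, 4208, 1.49, 0, 157, 8713 and 3696. Library 6 held pmela at 10615 but DCT at 2.2 and TYRP1 at 0.975, and the 3 genes were under 400 in libraries 1, 4 and 5. MITF (ENSDARG00000003732), which directs the melanophore fate, had 374, 3057, 9837, 5.68, 789, 2400.1, 16031 and 8695. Of 13 melanophore genes with a mean of 100 or more, 7 were highest in library 7 and 3 in library 3. Over all 11383 genes with such a mean the shares were 6.24% and 7.59%. The other members were trpm1b and OCA2, highest in library 4 at 15003 and 925, and pmelb, highest in library 6 at 1470. Of the melanophore genes with a mean under 100, KIT was highest in library 1 (386) and then in library 8 (222). In libraries 3 and 7 KIT was at 144 and 36.4. The other MITF identifier (ENSDARG00000037833) was at 18.5 in library 7 and 0 elsewhere.

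Xanthophore genes were highest in libraries 7 and 6, with means of log2(value + 1) of 12.9 and 12.3, followed by library 3 (10.2) and library 5 (9.64). The aldehyde oxidase gene aox5 had 282, 355, 1867, 6.01, 5134, 32683, 15993 and 1848, PAX7 (ENSDARG00000070818), a regulator of xanthophores, had 0.964, 202, 782, 0.974, 1338, 9289, 7052 and 803, and PTS, of pteridine synthesis, had 204, 1034, 2711, 0.964, 1034, 3204, 10015 and 1530.1. All 3 were under 10 in library 4. Of the 7 xanthophore members 4 were highest in library 7 and 2 in library 6, against 6.24% and 21.8% of the 11383 genes with a mean of 100 or more. XDH was highest in library 3 (366). The other PAX7 identifier (ENSDARG00000100398) was highest in libraries 7 and 3, at 5146 and 1521, against 544 in library 6. Of the iridophore genes, pnp4a and ALX4 had their highest values in libraries 3 and 7: pnp4a, a purine phosphorylase, had 11.8, 832, 29948, 7.12, 2603, 6822, 32310.4 and 5066, and ALX4 (ENSDARG00000088332) had 220.2, 868, 13861, 1012, 634, 1486, 7554 and 856. IMPDH1 (ENSDARG00000029524), of guanine synthesis, had 17, 6364, 16063, 1801, 12943, 39044, 46654 and 3659.6, with libraries 6 and 7 highest. TFEC was highest in library 3 (3013), then in libraries 6 (1751) and 8 (1120), with 871 in library 7. The receptor gene ltk, with a mean under 100, was highest in library 4 (286) and then in library 8 (82.7). In libraries 3 and 7 ltk was at 10.7 and 11.8. A rho of 0.7 or more with the rest of their class was found for 10 of 13 melanophore genes (5.78% of other genes), 2 of 5 iridophore genes (7.1%) and 5 of 7 xanthophore genes (4.76%). The same 8 libraries served to draw the classes, so these counts are descriptions.

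Genes outside the list that followed the mean of the pigment members most closely (Pearson r on the log2 scale) were HM13 (0.978), PIP4P2 (0.976), zgc:110239 (0.961), NME4 (0.958) and CCDC28B (0.952). They were picked as the closest of many genes over 8 libraries, as were those named for the other classes below. Neither their r nor a match of ranks is therefore a test of a link. HM13, a signal peptide peptidase, varied within a narrow range, with 1767, 4178, 6359.6, 2145, 2354, 5251, 6815 and 4708 in libraries 1 to 8, and its ranks matched those of the pigment mean exactly. NME4, a nucleoside diphosphate kinase, was steeper, with 6320.1 and 4528 in libraries 3 and 7 and at most 835 elsewhere.

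Neuronal genes were highest in library 2, where 20 of 31 members peaked, against 8.55% of the 11383 genes with a mean of 100 or more. For 15 of the 31 the mean would be under 100 without library 2, so that they had to be high there. Of the 31, 12 had a rho of 0.7 or more with the rest, against 6.07% of 11352 other genes. ELAVL3, an RNA-binding protein of new neurons, had 4.44, 13147, 337, 12599, 0.871, 2.42, 3.17 and 338, so libraries 2 and 4 were alike in it. They differed in the other members. ISL1, a regulator of sensory and motor neurons, was at 6286 in library 2 and at most 2.96 elsewhere, gap43, a growth cone protein, was at 5674 and at most 107 elsewhere, and STMN1 (ENSDARG00000033655) was at 14155, 2314 and 896 in libraries 2, 4 and 3. DRGX, a regulator of sensory neurons, was at 5628 in library 2 and at most 130.4 elsewhere. In library 4 the proneural genes NEUROD4 and ascl1a were at 3271 and 2589.6, against at most 494 and under 1 in the other 7, beside the Notch genes given above. DRGX, NEUROD4 and ascl1a were picked after their values were seen. PRDM12, which acts in sensory neurons, had another pattern, 426, 4949, 11476, 11090.3, 0, 35733, 9.75 and 14499.9, and rtn1b, a reticulon, had 1.47, 7393, 7569.9, 7.17, 0, 282, 13397 and 2877.

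The genes closest to the neuronal mean were SULT4A1 (r = 0.953), PHF24 (0.952), CLSTN3 (0.951), znf1111 (0.940) and adcyap1b (0.938). Each was at 886 to 2785 in library 2 and at under 100 in the other 7, so these likenesses rest on that library. Without library 2 the median rho between neuronal genes was 0.215.

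Glial genes had the lowest median rho of the 6 classes, 0.117, which was -0.0533 without library 5 and 0.357 without library 1. None of 8 members had a rho of 0.7 or more with the rest, against 3.35% of 11375 other genes. FABP7 (ENSDARG00000007697), a fatty acid binding protein of glial progenitors, had 171, 3146, 7380.4, 7568, 0, 1157, 544 and 6358. The myelin gene mbpb had 1833, 28.2, 527, 4.79, 0.911, 2313, 828 and 1429.6, and SOX2 was at 2160.2 in library 6 and at most 317 elsewhere. The genes nearest to the glial mean were timmdc1, RNF170, BABAM1, LYSET and SLC35B1, with r of 0.942 to 0.973, and all 5 were lowest in library 5, as the glial mean was.

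Muscle genes split the libraries into high and low. Of 50 members 27 had a rho of 0.7 or more with the rest, against 4.76% of 11333 other genes. The muscle actin gene actc1b had 534386, 194868, 673, 25.4, 30241, 202949.9, 268 and 231457 in libraries 1 to 8, tropomyosin tpma had 141169, 42401, 1.39, 9.17, 6146, 42821, 83.5 and 74789, and the creatine kinase ckmb had 79659.7, 29561, 8.12, 2.03, 7326, 36171, 59.5 and 41426. MYL1 (ENSDARG00000014196), ACTA1 (ENSDARG00000055618), ckma, atp2a1 and ALDOA (ENSDARG00000034470) reached 67168, 40063, 46173, 44211 and 39092 in library 1. Libraries 3, 4 and 7 had each of these 8 genes at 673 or less, library 5 lay between, and libraries 1, 2, 6 and 8 were high. The list took 6.16% of the sum in library 1 and 0.0601% in library 4. The muscle regulators did not follow this split. MYOG was highest in library 5, where actc1b was intermediate, and MYOD1 had 1544, 0.97, 258, 38.3, 779, 27.4, 114 and 30.2 in libraries 1 to 8. Nearest to the muscle mean were EFCAB7, TIMP2 (ENSDARG00000061226), mybphb, ARHGAP18 and EFNA1 (ENSDARG00000018787), with r of 0.957 to 0.977.

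Epidermal genes were high in libraries 8 and 1, and 20 of 53 members had a rho of 0.7 or more with the rest, against 5.27% of 11330 other genes. For 9 of the 53 the mean would be under 100 without their highest library, so that they had to be high there. That library was library 8 for 6 and library 1 for 3. The epidermal marker TP63 was at 3033 in library 8, 368 in library 6 and 0 in library 1. The keratin gene krt4 had 328979, 14265, 12.7, 277, 121, 29063, 394 and 328519, cyt1 had 71569, 2804, 4.78, 104, 25.4, 1656, 185 and 181126, and epcam, an epithelial adhesion molecule, had 35540.1, 11682, 0, 0, 0, 3073, 55.5 and 44388. Library 8 exceeded library 1 in cyt1l (230297 and 49754), anxa1c (80110.2 and 12853) and pfn1 (118526 and 13348), and library 1 exceeded library 8 in krt18a.1 (60171 and 10971). The ionocyte regulator foxi3b, picked after its values were seen, was at 23120.3 in library 1, 7427 in library 8 and 3892 in library 6, and under 3 in the others. The list took 5.87% of the sum in library 8 and 4.49% in library 1, against 0.0996% to 0.499% elsewhere. Closest to its mean were prr13, lipia, si:ch211-195b11.3, si:dkey-19b23.12 and cfl1l, with r of 0.956 to 0.977.

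Blood genes were a matter of 1 library. Of 43 members 42 were highest in library 5, against 1391 of the 11383 genes with a mean of 100 or more. Of these 42 members, 19 would have a mean under 100 without library 5, so that they had to be high there. Of the 43, 9 had a rho of 0.7 or more with the rest, against 5.11% of 11340 other genes. The embryonic globin genes hbae1.2, hbae1.1, hbae1.3, hbbe3 and hbae3 were at 1333737, 715317, 623137, 535832 and 325946 in library 5, at 15408, 7744, 4808, 8430.3 and 2695 in library 6, and at no more than 572 elsewhere. Copies of globin genes are near identical, so reads may be divided among them in ways the table does not show. SLC4A1 (ENSDARG00000012881), the anion exchanger of red cells, and alas2, the first enzyme of their heme synthesis, were at 90603 and 69829 in library 5 and at most 13.4 and 362 elsewhere. Without library 5 the median rho between blood genes was 0. TAL1 and LMO2, which the endothelial list also holds, were at 26829.6 and 15429 there. Among the 5 genes nearest to the mean were NMT1 (ENSDARG00000057206), otos2, SLC18B1 and PIP5KL1, each at 0 to 3.94 outside library 5.

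**Figure D4:**
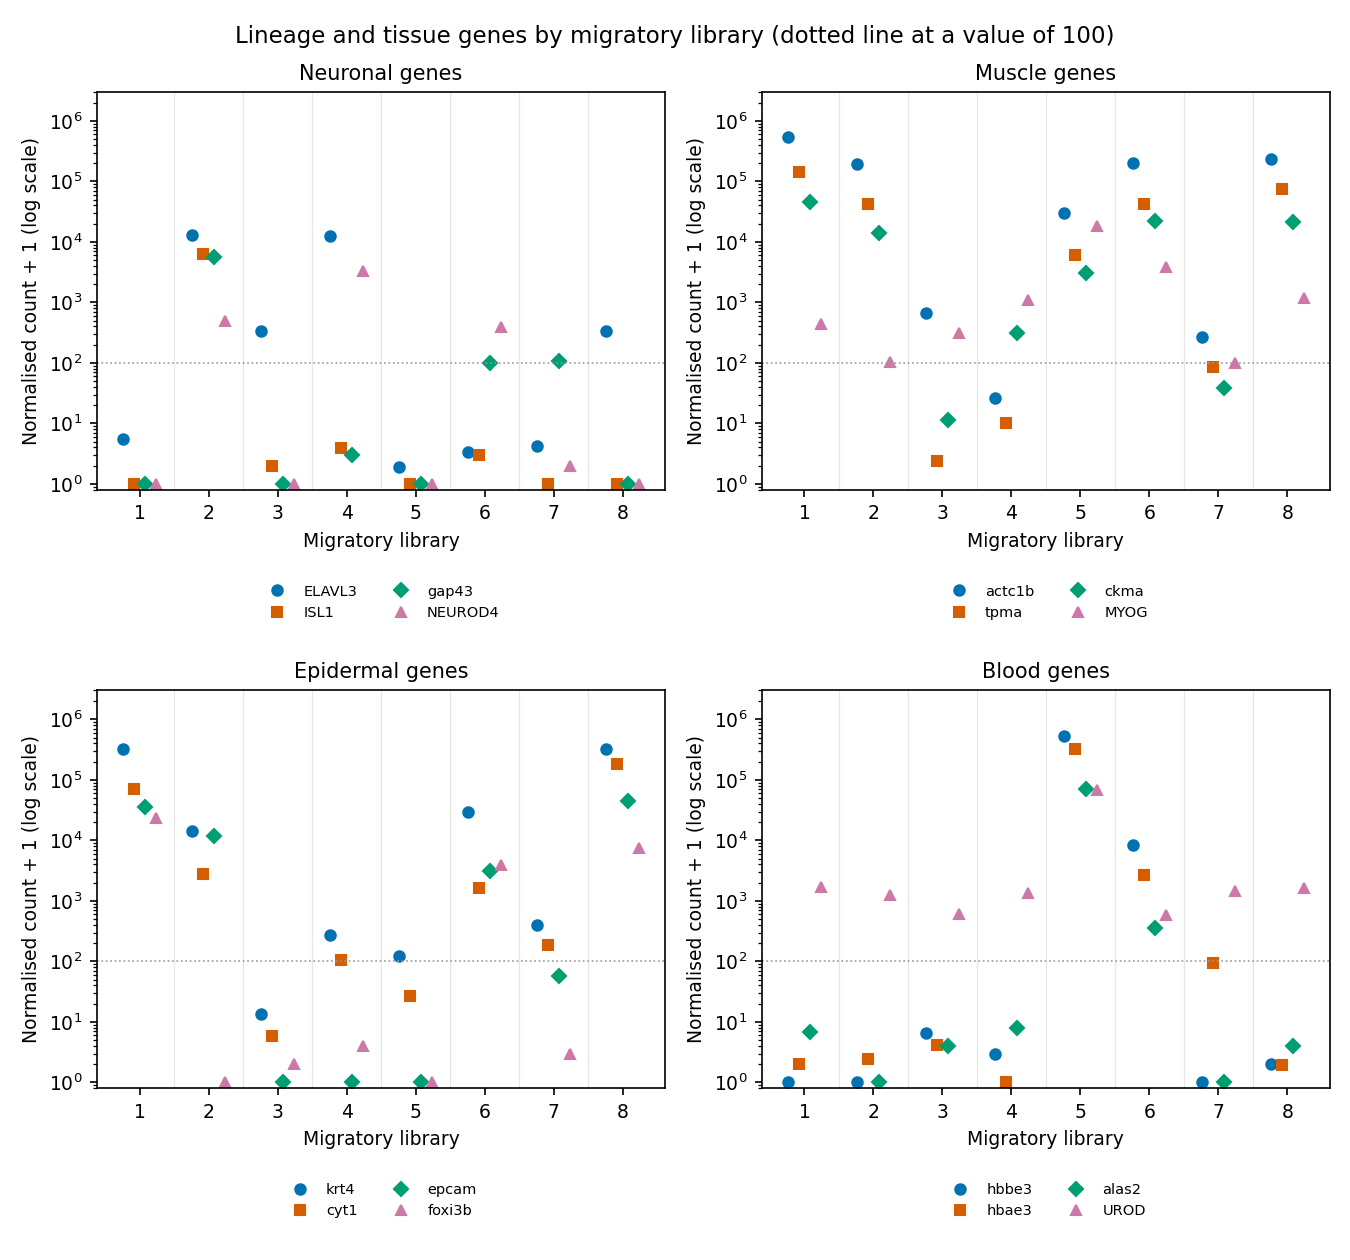
Normalised counts plus 1 (vertical log axis) of 4 neuronal, muscle, epidermal and blood genes in each migratory library (horizontal axis), 1 point per gene and library, with a dotted line at 100. Neuronal genes stand out in library 2, with ELAVL3 and NEUROD4 also in library 4, muscle genes in libraries 1, 2, 6 and 8, epidermal genes in libraries 1 and 8 and globin genes in library 5, while UROD stays above 100 in all 8.

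Relations between classes were tested with 1 gene per class (pmela, ELAVL3, FABP7, actc1b, krt4 and hbae3), SOX10, crestin and the number of genes at 10 or more, 36 pairs in all, by exact two-sided permutation over the 8 libraries on log2(value + 1). Unadjusted p was under 0.05 for 7 pairs by Pearson's r and for 5 by Spearman's rho. After Benjamini-Hochberg adjustment 1 pair by r and 0 by rho passed 0.05, the lowest adjusted p by rho being 0.0804. The pair was FABP7 and crestin (adjusted p of the exact permutation test 0.0491), for which no pooled r is given, because FABP7 at 0 in library 5 is set apart from the other 7. The number of pairs that passed was 0 without any 1 of libraries 1, 2, 3, 4, 5, 7 or 8 and 2 without library 6. Values of 15 pairs fell into separate clusters in this way. SOX10 and crestin had r = 0.947 and rho = 0.833 (exact permutation p = 0.00402 and 0.0154, adjusted 0.0723 and 0.196). Without libraries 1 and 5 their r was 0.433, so the relation rests on these libraries. The muscle gene actc1b and the epidermal gene krt4 had r = 0.770 and rho = 0.810 (exact permutation p = 0.0360 and 0.0218, adjusted 0.216 and 0.196), and r = 0.918 without libraries 4 and 7. ELAVL3 and hbae3 had r = -0.698 and rho = -0.810 (exact permutation p = 0.0433 and 0.0218, adjusted 0.223 and 0.196), and r = -0.687 without libraries 2 and 4. Only 2 libraries reached 100 for hbae3 and 4 for ELAVL3, so much of the order behind these coefficients lies among values near 0. None of these 3 pairs passed the adjustment.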

How the data were processed

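Cells were processed with SMART-Seq v4 and Nextera chemistry, per the labels' protocols. The submitters' processing notes list fastp 1.0, Salmon and GRCz11, with no role or order. The authors deposited 1 table with a normalised signal (normalised counts, per its name) for 25878 genes. The method of normalisation is not given in the sources used here, and values are not whole, so no count model was run. Only the 8 migratory columns were used, and 0 columns were left without a sample. Depth is known only from the sums, and amplified reads carried no molecular identifiers.

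Identifiers were matched to the gene name table supplied, in which 23604 have a symbol and 3608 share one, since paralogs carry 1 human-style name. Of 1517 list symbols 1120 matched as written, 313 after removal of the paralog letter and 84 not at all, so a list can hold both paralogs. Near-identical copies may divide reads.

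The shared set needs 100 or more in all 8 libraries. Logs are log2(value + 1). Correlation measures used genes with a mean of 100 or more. Named genes were the first 20 of the set by mean, up to 5 shared members per list, up to 8 members per class, the 5 nearest outside genes per class, the extremes of evenness, those at the threshold and the markers. Others were picked after their values were seen. The members and lists were chosen with earlier results of these data known. Clusters were called separate where the largest gap exceeded 0.5 of the range. A p-value here gives how often a pairing of the 8 libraries at random reaches as large a coefficient. The differences between libraries may be technical. Scripts were tested on simulated data. Alternatives were other thresholds, scalings, filters, a pseudocount of 10 and leaving out libraries. Calculations used scipy 1.17.1, pandas 2.3.3, matplotlib 3.10.9, numpy 2.4.6 and Python 3.11.15.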

Additional observations from a re-analysis of the deposited data

Results flagged for a closer look

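Dixon's test marked 5 measures in which 1 of the 8 libraries lay apart, its gap to the next being more than 0.526 of the whole range. Chance alone marks about 1 in 20 groups. The number of measures examined is not given here, so the 5 marks cannot be set against that rate. The lists hold members with a mean of 100 or more, and 19 of 43 blood genes passed through library 5 alone and 15 of 31 neuronal genes through library 2 alone. For these 2 lists the mark is therefore partly set by the filter and is given as a description. In library 5, the 10 genes with the highest values took 32.1% of the sum, against 15.1% in the next library. The mean log2 of blood genes was 14.0 there, against 6.2 in the next library, and that of Hox genes was 2.53, against 6.48 in the next lowest. FABP7 (ENSDARG00000007697) had a log2 value of 0 in library 5. In library 2 the mean log2 of neuronal genes was 10.7, against 6.09 in library 4.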

How the results depend on the processing

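No paired analysis was possible because the 8 libraries form 1 group and no groups were compared. Leaving out libraries 4 and 5 together was an alternative added after the data were seen. The shared set had 4244 genes when at least 7 of 8 libraries had to reach 100 and 3950 without libraries 4 and 5. It had 2233 to 2750 at values of 200 and 50, 2502 to 2538 under 3 other scalings, and 2560 to 3440 when 1 library was left out. The number of list members in it ran from 434 to 491 when 1 library was left out. With no filter on low values the median rho within lists was 0.436 for pigment, 0.268 for neurons, 0.220 for muscle and 0.345 for epidermis. For muscle it was 0.333 with a mean of 10 or more and 0.429 under median-of-ratios scaling, and for glia it was -0.0543 under the latter. Leaving out 1 library gave 0.401 to 0.607 for pigment, 0.215 to 0.470 for neurons, -0.0533 to 0.357 for glia, 0.393 to 0.50 for muscle, 0.355 to 0.50 for epidermis and 0 to 0.429 for blood, with the lowest for neurons without library 2, for pigment without library 7 and for blood without library 5. The pairs of single genes past adjusted p by r numbered 2 under median-of-ratios scaling, 0 without the 2 libraries farthest from the median, 0 without libraries 4 and 5, and 0 to 2 when 1 library was left out. The crest marker means, over the same leave-outs, ran from 8819 to 11879 (SOX10), 6833 to 9134 (crestin), 6191 to 7585 (FOXD3) and 6225 to 8037 (TFAP2A). The cause of these shifts was not tested. Depth is known only from normalised sums, so a value under 100 in 1 library does not show absence.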

Other observations

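The pattern of ednrab, mmp17b and pmp22a was looked for in the rest of the shared set after it had been seen. Libraries 1, 5 and 7 were the 3 lowest for 197 of the 2533 shared genes (7.78%), the second most frequent of the 56 possible sets of 3 libraries, after libraries 1, 5 and 6 with 284 genes. In 18 of the 197 each of the other 5 libraries was at least 2 times the highest of these 3. Besides the 3 genes named, they include FOXP4, a forkhead factor (306, 4597, 2262, 6821, 255, 14501, 319 and 6280.1 in libraries 1 to 8), rgmd (268, 3174, 2649.9, 7429, 506, 6943, 189.8 and 6424), HOXB9, SLC1A3 (ENSDARG00000104431), HOXA11 (ENSDARG00000007009), HMGB3 (ENSDARG00000056725), mfap2, a protein of microfibrils, and CHSY3, which builds chondroitin chains (1008, 12011, 13956, 9927, 1299, 15732, 4798 and 16917). Library 7 had SOX10 at 11034 and the highest mean of pigment genes, whereas libraries 1 and 5 were the lowest for the 4 crest markers, so the 3 libraries are not alike in other respects.

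Of 20 sclerotome and fibroblast genes with a mean of 100 or more, 10 were highest in library 8 and 6 in library 6. Over all 11383 genes with such a mean the shares were 12.4% and 21.8%. For 7 of the 20 the mean would be under 100 without their highest library, which was library 8 for 3 and library 6 for 3. The counts are therefore partly set by the filter. COL1A2 had 647, 343, 1073, 5.97, 0, 5471, 22.1 and 7281 in libraries 1 to 8, and POSTN (ENSDARG00000104267) had 1174, 2901, 3724, 8304, 0, 9163, 4357 and 12905. MEOX1, a regulator of somite cells, was at 14678 in library 6 and at most 939 elsewhere. The sclerotome marker PAX9 was at 580 in library 8, 277 in library 1 and 0 in library 6. The sclerotome markers PAX1 (ENSDARG00000008203) and PAX1 (ENSDARG00000073814) did not pass 3.71 and 5.48 in any library. FOXJ1, which drives motile cilia, was at 8664 in library 1 and at most 13.9 elsewhere.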
